A study of Mus musculus with 4 samples.

Results

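The ATF4 amino acid response genes are a set of 10 mouse genes of the integrated stress response: Trib3, Asns, Chac1, Atf4, Atf3, Ddit3, Ppp1r15a, Psat1, Phgdh and Nupr1. They were followed in female mouse liver after siRNA knockdown of Cux2, which encodes a homeobox transcription factor that in mouse liver is expressed mainly in females. The members were matched through the RefSeq accessions of the array probes. All 10 were measured, by 13 of the 41174 probes, and they are 10 of 25101 genes tested. The set was chosen by its treated over control log2 ratios on these same arrays, so those ratios are given as a description and carry no test of the set.

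The integrated stress response begins with kinases that phosphorylate the translation factor eIF2. GCN2, 1 of these kinases, senses uncharged tRNA when amino acids run short, and PERK, PKR and HRI respond to unfolded protein in the endoplasmic reticulum, double-stranded RNA and lack of haem. Phosphorylated eIF2 lowers protein synthesis in general but lets the transcription factor ATF4 be translated, so that ATF4 protein is set largely at translation and not by its mRNA alone. ATF4, paired with C/EBP family factors, binds C/EBP-ATF response elements (CARE) and switches on genes for amino acid synthesis, uptake and tRNA charging, together with feedback and cell death regulators. In liver the response is known for adjusting amino acid metabolism to diet.

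Liver RNA came from CD-1 mice, an outbred stock, all female and 8 weeks old. Mice were given Cux2 siRNA and killed 5 or 8 days later, and the treated pools held 3 mice and 2 mice at day 5 (replicates 1 and 2) and 2 mice each at day 8. The control was a non-specific siRNA given to 13 mice, pooled by 6 or 7 in the series text, whereas every sample label gives 6, and neither the control animals' time of death nor the pool used on each array is stated. Every array set a treated pool against a control pool in 2 colours, with the treated pool in Alexa 647 in replicate 1 and in Alexa 555 in replicate 2. The treated group was not compared with untreated mice, and both groups had received an siRNA. Below, a ratio is Cux2 siRNA over non-specific siRNA on a log2 scale, so that -1 means a level halved. A gene is said to have risen or fallen only where its Benjamini-Hochberg adjusted p was under 0.05 in limma over all 25101 genes, and standard errors (SE) come from that fit.

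The Cux2 probe gave ratios of -1.91 and -1.70 at day 5 and -1.07 and -1.20 at day 8. Cux2 therefore stood at 28.6% of control at day 5 and 45.6% at day 8 (limma adjusted p 0.00298 and 0.00701). The fall in the targeted transcript was present on all 4 arrays. Each channel had 71.1% to 74.6% of its probes well above background and none saturated, and the number of arrays, with 2 residual degrees of freedom, limits the precision.

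Promoter sequence is shown first, because it was not computed from the array ratios. The members are listed genes of a response that acts through CARE, so CARE matches among them are not independent of how the set was drawn up. Sequences are RefSeq promoter windows of build GRCm38.p6, from 250 bases before to 50 bases after the annotated gene start, written 5′ to 3′ along the gene with position 1 at its first base. Both strands were searched for the CARE core TGATGNAA and for the cyclic AMP response element TGACGTCA, which reads the same on both strands. No member's window held both motifs. In the lines that follow the match is in capitals, and a CARE core on the opposite strand appears as its reverse complement.
Asns, chr6:7693185-7693272, minus strand, match at -23 to -16: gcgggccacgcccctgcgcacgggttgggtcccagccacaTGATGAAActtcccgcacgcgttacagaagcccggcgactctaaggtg
Chac1, chr2:119351009-119351096, plus strand, match at -193 to -186: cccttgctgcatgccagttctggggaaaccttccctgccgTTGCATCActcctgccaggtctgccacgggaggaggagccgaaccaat
Atf3, chr1:191183396-191183483, minus strand, match at -110 to -103: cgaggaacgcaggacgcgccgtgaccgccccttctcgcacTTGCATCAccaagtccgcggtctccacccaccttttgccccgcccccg
Nupr1, chr7:126625533-126625620, minus strand, match at -110 to -103: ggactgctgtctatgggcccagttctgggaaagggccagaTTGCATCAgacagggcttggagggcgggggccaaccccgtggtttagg
Trib3, chr2:152344011-152344086, minus strand, match at 15 to 22: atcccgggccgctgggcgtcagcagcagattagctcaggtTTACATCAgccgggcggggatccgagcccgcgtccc
Ppp1r15a, chr7:45526233-45526320, minus strand, cyclic AMP element at -12 to -5: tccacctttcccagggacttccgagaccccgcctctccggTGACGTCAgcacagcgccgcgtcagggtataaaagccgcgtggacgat

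The CARE core was present in the windows of 5 of the 10 members, Trib3, Asns, Chac1, Atf3 and Nupr1, and in 1219 of 27025 annotated genes (4.51%). Since known ATF4 response genes make up the set, nothing is read from this contrast. Read along their own strands, Chac1, Atf3 and Nupr1 held the variant TGATGCAA, Trib3 held TGATGTAA and Asns held TGATGAAA. The match in Trib3 lay just inside the transcribed region and the other 4 lay upstream of the gene start. The cyclic AMP element was found only in the window of Ppp1r15a among the members, and in 2.03% of all genes. The windows of Atf4, Ddit3, Phgdh and Psat1, the last with 2 annotated starts, held neither string of letters, which says nothing about elements elsewhere.

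**Figure D1:**
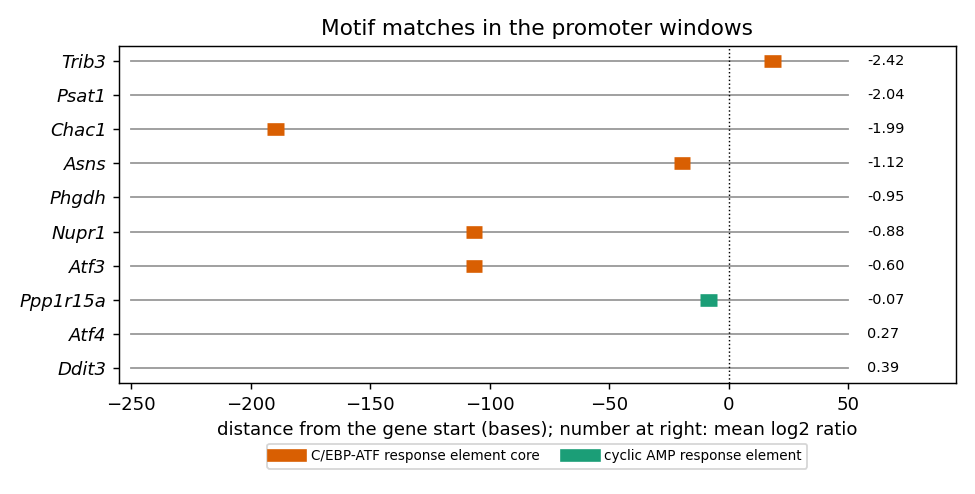
Position of each motif match in the promoter windows of the 10 genes, in bases from the gene start (dotted line), with genes ordered by their mean log2 ratio of Cux2 siRNA over non-specific siRNA, printed at the right. The 5 genes with a CARE core (orange) have mean ratios from -2.42 to -0.60, and Ppp1r15a, with the cyclic AMP element (green), has -0.07. Without a match, Psat1 has -2.04, Phgdh -0.95, Atf4 0.27 and Ddit3 0.39. The set was chosen by these ratios.

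The 5 genes with a CARE core all had ratios below 0 on every array, as did 26.1% of all genes, although Atf3 did not pass the test. Psat1 and Phgdh were also below 0 on every array without a match. The set was chosen by these ratios, so nothing is read from which members held a match. Beyond the members, 11 genes of the related pathway lists held a CARE core, and 9 of them were tested. Of those 9, chosen by the motif after ratios had been seen, 3 fell (Gbp3, Vldlr and Got1), 0 rose and 6 did not pass. Falls made up 16.3% of all genes. Gbp3 (-4.31 ± 0.06) belongs to the interferon response list, in which 12 of 14 genes fell, and not to a list of the ATF4 response. Vldlr, a lipoprotein receptor gene, had a mean ratio of -0.96 ± 0.18 (SE). The hepatokine gene Fgf21 averaged -0.94 ± 0.29 without passing, with -1.82 and -0.37 at day 5 and -1.31 and -0.26 at day 8. The tRNA synthetase gene Aars averaged -0.34 ± 0.13, Gars -0.08 ± 0.06, the transporter gene Slc1a4 0.02 ± 0.09, Herpud1 0.01 ± 0.11 and Eif2s3x 0.13 ± 0.05, none of which passed.

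Over both days 7 of the 10 members passed, against 31.1% of all genes tested, and since the set was chosen by these ratios nothing is read from that count. The 6 that fell, Trib3, Psat1, Chac1, Asns, Phgdh and Nupr1, encode a pseudokinase, amino acid enzymes, a glutathione-degrading enzyme and a small stress regulator, while falls made up 16.3% of all genes. The 1 that rose was Atf4 itself, while rises made up 14.8% of all genes. At day 5, 7 members passed (16.8% of all genes), of which 6 fell (9.41%) and 1 rose (7.37%). At day 8, 6 members passed (14.3%), of which 6 fell (8.05%) and 0 rose (6.27%). Ratios were below 0 on all 4 arrays for 7 members (26.1% of all genes) and above 0 on all 4 for Atf4 and Ddit3 (26.4%). The median member ratio was -0.85 and -1.04 on the day 5 arrays and -0.76 and -1.05 on the day 8 arrays, and over both days -0.92, against 0.00 for all genes. With the arrays centred on their medians in place of loess the ratios were of similar size but only Trib3 still passed over both days, and no member passed on a single day. When 1 array of a day was left out, fewer members and fewer genes in all were called on that day. Both counts are given in the last section.

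**Figure D2:**
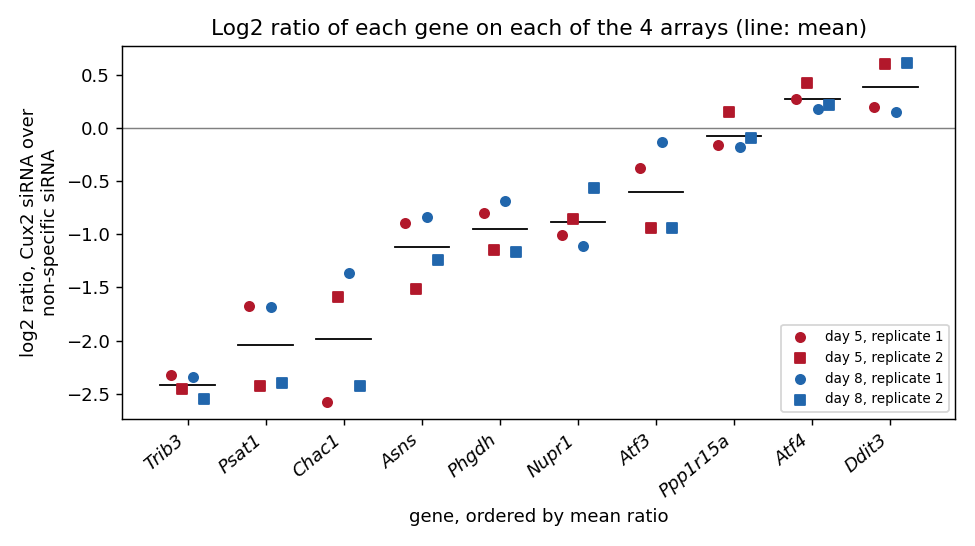
Log2 ratio of Cux2 siRNA over non-specific siRNA (vertical axis) for each of the 10 genes, ordered by mean, with 1 point per array (red day 5, blue day 8, circles replicate 1, squares replicate 2) and a line at the mean. Trib3 lies between -2.55 and -2.32 on all 4 arrays, whereas Chac1 spreads from -2.57 to -1.36, and Atf4 and Ddit3 lie above 0.

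Trib3, a pseudokinase that is induced by ATF4 and CHOP and feeds back on ATF4, had the lowest mean ratio of the set and the tightest arrays among those that fell. Its brighter probe read 8.55, 8.60, 8.39 and 8.65 (log2 intensity) in the Cux2 siRNA channels of day 5 replicates 1 and 2 and day 8 replicates 1 and 2, against 10.88, 11.06, 10.73 and 11.20 in the control channels. The ratios were -2.32 and -2.46 at day 5 and -2.34 and -2.55 at day 8. All 4 treated readings lay more than 2 log2 units under the lowest control reading. As scanned, the spot gave 715, 566, 662 and 581.5 in the treated channels over local backgrounds of 304 to 341, and 1833, 3117, 1638 and 3207 in the control channels. The mean ratio of -2.42 ± 0.06 (SE) corresponds to a 5.34-fold lower signal, or 18.7% of control. A second, dimmer Trib3 probe gave -0.69 and -0.74 at day 5 and -0.65 and -0.74 at day 8. Both probes were well above background in all 8 readings and both had treated readings below the control readings, but they differed in size, with a mean of -0.70 for the dimmer one. With both probes averaged the Trib3 mean was -1.56.

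Chac1, a gamma-glutamyl cyclotransferase that breaks down glutathione and is induced through ATF4, had the largest spread. Its probe read 7.69 and 8.50 at day 5 and 9.0 and 7.93 at day 8 in the Cux2 siRNA channels, against 10.27, 10.09, 10.37 and 10.36 in the control channels. The ratios were -2.57 and -1.59 at day 5 and -1.36 and -2.43 at day 8. The control readings differed little among arrays, the treated readings ranged over more than 1 log2 unit, and the groups did not overlap. The mean was -1.99 ± 0.24 (SE), a 3.97-fold lower signal, and it ranged over the alternatives from -2.26 to -1.34, the last without background subtraction.

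Psat1 and Phgdh encode phosphoserine aminotransferase and phosphoglycerate dehydrogenase, the enzymes of the second and first steps of serine synthesis from glycolysis. Psat1 read 7.02 and 6.64 at day 5 and 7.10 and 7.06 at day 8 in the Cux2 siRNA channels, against 8.69, 9.06, 8.78 and 9.46 in the control channels. Its ratios were -1.67 and -2.42 at day 5 and -1.68 and -2.40 at day 8, so that replicate 2 was lower than replicate 1 on both days. The mean was -2.04 ± 0.17 (SE), a 4.13-fold lower signal, but its size depended on the background correction. The Psat1 mean was -2.82 on the scanner software's processed signals and -0.99 without background subtraction. As scanned, its treated spots gave 428.5, 336.5, 432.5 and 366, near their local backgrounds of 342, 306, 338 and 308.5. The control channels gave 610, 958, 626.5 and 1130. Phgdh, by its brightest probe, read 6.83 and 7.04 at day 5 and 7.02 and 6.94 at day 8 in the Cux2 siRNA channels, against 7.63, 8.19, 7.70 and 8.10 in the control channels. Its ratios were -0.80 and -1.15 at day 5 and -0.68 and -1.16 at day 8, with a mean of -0.95 ± 0.11 (SE), 1.93-fold lower. On processed signals the Phgdh mean was -1.41, and without background subtraction it was -0.37. As scanned, the treated spots of that probe gave 406, 365.5, 425.5 and 360, near their local backgrounds of 342, 307.5, 342 and 308.5. The control channels gave 427, 652, 429.5 and 606. Treated and control readings did not overlap for either gene. A second Phgdh probe gave -0.53, -1.01, -0.48 and -1.05 on the same 4 arrays, and the dimmest, well above background in only 1 treated and 3 control readings of 4 each, gave -0.12, -0.32, -0.04 and -0.20. The remaining enzyme of that route, phosphoserine phosphatase (Psph), is not a member and rose, with ratios of 0.59 and 0.38 at day 5 and 0.38 and 0.40 at day 8 and a mean of 0.44 ± 0.06 (SE).

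Asns encodes asparagine synthetase, the enzyme that makes asparagine from aspartate and glutamine and a standard readout of amino acid shortage. It read 7.63 and 7.31 at day 5 and 7.69 and 7.71 at day 8 in the Cux2 siRNA channels, against 8.52, 8.82, 8.52 and 8.96 in the control channels. The ratios were -0.89 and -1.52 at day 5 and -0.83 and -1.24 at day 8. All treated readings were below all control readings, and the mean of -1.12 ± 0.13 (SE) corresponds to 46.0% of control. It was -1.42 on processed signals and -0.57 without background subtraction.

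Nupr1 encodes a small stress-induced nuclear protein. Its probe read 8.11 and 7.95 at day 5 and 8.07 and 8.34 at day 8 in the Cux2 siRNA channels, against 9.12, 8.81, 9.18 and 8.90 in the control channels. The ratios were -1.01 and -0.85 at day 5 and -1.11 and -0.56 at day 8. Here replicate 1 was the lower one on both days, the opposite of Psat1, Phgdh and Asns. The mean was -0.88 ± 0.10 (SE), or 54.2% of control, and -0.50 without background subtraction.

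**Figure D3:**
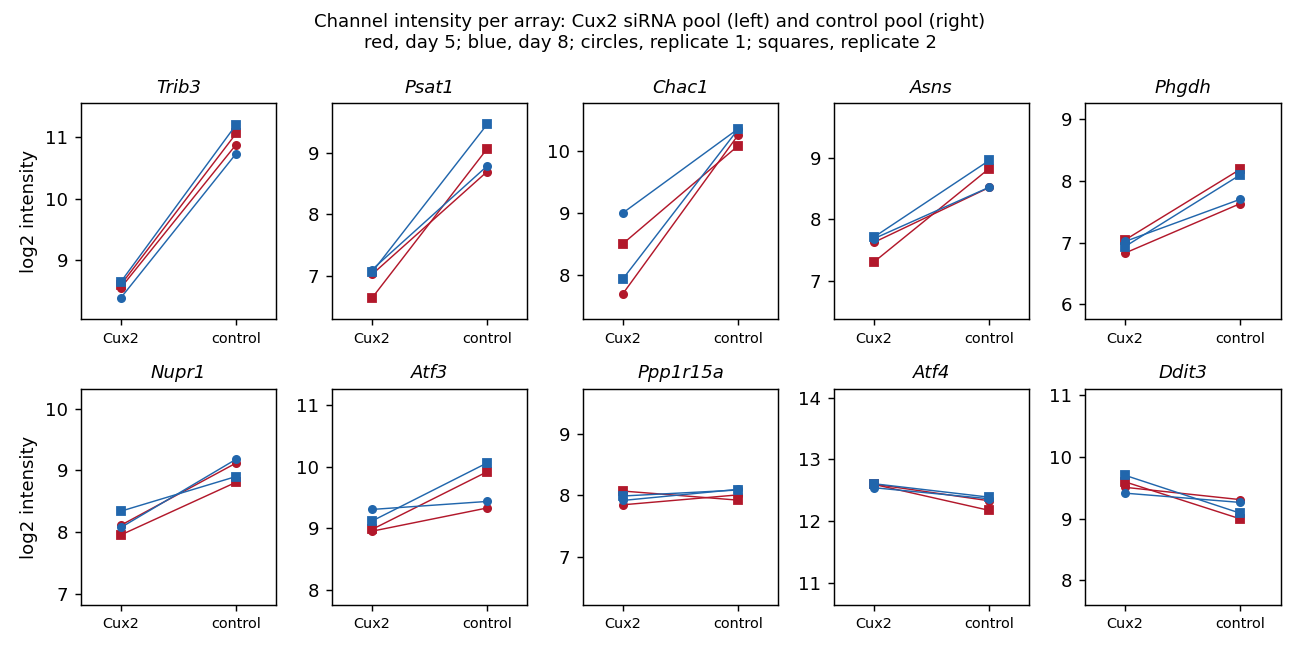
Log2 channel intensity of the 10 genes in the Cux2 siRNA pool (left) and the control pool (right) of each array, joined by a line per array (red day 5, blue day 8, circles replicate 1, squares replicate 2). The treated readings lie below the control readings for Trib3, Psat1, Chac1, Asns, Phgdh, Nupr1 and Atf3. They lie above the control readings for Atf4 and Ddit3, and among them for Ppp1r15a. How many of all genes have channels that do not overlap was not computed. The set was chosen by these ratios, so nothing is read from the separation here or in the text.

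The transcription factor Atf4 moved the other way. Its probe read 12.60 and 12.59 at day 5 and 12.54 and 12.60 at day 8 in the Cux2 siRNA channels, against 12.33, 12.17, 12.36 and 12.39 in the control channels. The ratios were 0.27 and 0.42 at day 5 and 0.18 and 0.22 at day 8. The groups did not overlap, but the difference was small: the mean of 0.27 ± 0.05 (SE) corresponds to 121% of control. It passed at day 5 and over both days and did not pass at day 8, and over both days it no longer passed when any 1 array was left out, on processed signals, on the authors' log10 ratios or with median centring. ATF4 protein was not measured here.

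Atf3, Ddit3 and Ppp1r15a are stress-induced regulators, and these 3 members did not pass. ATF3 is a stress-induced transcription factor, and its probe read 8.95, 8.98, 9.30 and 9.12 in the Cux2 siRNA channels, against 9.33, 9.92, 9.43 and 10.06 in the control channels. Its ratios of -0.38 and -0.94 at day 5 and -0.13 and -0.94 at day 8 were all below 0, with a mean of -0.60 ± 0.17 (SE), and were lower in replicate 2. Ddit3 encodes CHOP, the factor linked to cell death under prolonged stress, and read 9.51, 9.60, 9.41 and 9.70 in the Cux2 siRNA channels, against 9.31, 9.0, 9.26 and 9.09 in the control channels. Its ratios of 0.20 and 0.60 at day 5 and 0.15 and 0.61 at day 8 were all above 0, with a mean of 0.39 ± 0.11 (SE), and were higher in replicate 2. Ppp1r15a encodes GADD34, which directs dephosphorylation of eIF2, and its ratios were -0.16 and 0.15 at day 5 and -0.18 and -0.10 at day 8. It was the only member with ratios on both sides of 0 and averaged -0.07 ± 0.07 (SE). Atf3 and Ddit3 were near the threshold: over both days Atf3 fell and Ddit3 rose when day 8 replicate 1 was left out, among probes well above background in all 8 readings, and with the replicate number, which is also the dye orientation, as a block.

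No member passed for a difference between the days. Estimated differences, day 8 minus day 5, ran from -0.15 for Atf4 to 0.19 for Chac1, and 0 of the 25101 genes passed for this contrast (0%), with 620 at an unadjusted p under 0.05 in limma. The intervals are wide: for Trib3 the 95% interval of the difference was -0.37 to 0.26, for Psat1 -0.91 to 0.91 and for Chac1 -1.06 to 1.43. The Cux2 ratio itself was 0.67 ± 0.12 (SE) higher at day 8, which did not pass after adjustment. The 2 days may share control pools, so their ratios are not independent.

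Among genes outside the set, those with array ratios nearest to those of Trib3, by root mean square difference over the 4 arrays, were Uba7 (0.0644), Spats2l (0.0854), Ms4a4c (0.126) and Ccl2 (0.133). Uba7 had -2.24 and -2.48 at day 5 and -2.29 and -2.47 at day 8. This likeness is a description over 4 arrays, which may share control pools.

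The step that starts the response was examined in a list of 18 genes of the eIF2 kinases and eIF2 machinery, of which 17 were tested. Over both days 5 fell, 1 rose and 11 did not pass, with a median of -0.01. Among all genes tested, falls made up 16.3% and rises 14.8%, and these shares stand beside this and every list count that follows. No list was tested as a set. Eif2ak2 (PKR), the kinase activated by double-stranded RNA, fell most, with ratios of -0.89 and -1.52 at day 5 and -1.12 and -1.47 at day 8 and a mean of -1.25 ± 0.12 (SE). Eif2ak2 is also in the interferon response list below and is counted there again. Eif2ak1 (HRI) fell with a mean of -0.51 ± 0.06, and Eif2ak4 (GCN2), the amino acid sensor, rose with 0.29 ± 0.05. Eif2ak3 (PERK) averaged 0.32 ± 0.11 and did not pass. Dnajc3, which encodes an inhibitor of PERK and PKR, fell (-0.53 ± 0.07), as did the exchange factor subunit gene Eif2b2 (-0.44 ± 0.06). Phosphorylation of eIF2 was not measured. With median centring in place of loess, 0 genes passed over both days in this list and in each of the 6 response lists that follow, while 10 interferon and 5 acute phase genes still fell.

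The ATF4 partners and related bZIP factors were 12 tested of 14 listed: 4 fell, 2 rose and 6 did not pass, with a median of -0.12. Atf5, a relative of Atf4, fell by 0.66 on the log2 scale, and Cebpd (-0.52 ± 0.12), Nfe2l1 (-0.43 ± 0.06) and Cebpa (-0.31 ± 0.06) fell too. Cebpg, which encodes a dimer partner of ATF4, rose (0.30 ± 0.05), as did Jund (0.19 ± 0.05).

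Amino acid transporters under ATF4 were 10 tested of 11 listed: 4 fell, 0 rose and 6 did not pass, with a median of -0.13. Slc38a2, a sodium-coupled carrier of neutral amino acids, had -0.83 and -1.20 at day 5 and -0.55 and -0.92 at day 8, with a mean of -0.87 ± 0.10 (SE). The glycine carrier gene Slc6a9 (-0.61 ± 0.07), the large neutral amino acid carrier gene Slc7a5 (-0.37 ± 0.05) and Slc36a4 (-0.28 ± 0.06) also fell.

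Enzymes of serine, one-carbon, proline and transsulfuration metabolism outside the set were split: of 13 tested of 14 listed, 4 fell, 4 rose and 5 did not pass, with a median of 0.03. The mitochondrial folate enzyme gene Mthfd2 (-0.48 ± 0.05), the cystathionine synthase gene Cbs (-0.46 ± 0.07), Aldh18a1 of proline synthesis (-0.38 ± 0.06) and the aspartate aminotransferase gene Got1 (-0.38 ± 0.10) fell. The alanine aminotransferase gene Gpt2 (0.59 ± 0.11), Psph, Shmt2 (0.20 ± 0.05) and Mthfd1 (0.19 ± 0.05) rose.

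Other ATF4 and CHOP outputs were 24 tested of 25 listed: 6 fell, 3 rose and 15 did not pass, with a median of -0.04. Map1lc3b, which encodes the autophagosome protein LC3B, had ratios of -1.94 and -1.77 at day 5 and -1.54 and -1.81 at day 8, with a mean of -1.77 ± 0.07 (SE). Klhl24 had -1.39 and -1.42 at day 5 and -1.10 and -1.31 at day 8, with a mean of -1.31 ± 0.06. The tryptophanyl-tRNA synthetase gene Wars, which interferon also induces, fell (-0.81 ± 0.22). Ddit4, an inhibitor of mTORC1 signalling, rose (0.72 ± 0.05), as did the angiogenic factor gene Vegfa (0.38 ± 0.05) and the cysteinyl-tRNA synthetase gene Cars (0.20 ± 0.05).

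The endoplasmic reticulum branch gave 4 falls and 4 rises among 15 tested of 17 listed chaperones and XBP1 or ATF6 targets, with 7 not passed and a median of -0.05. The chaperone gene Hspa5 (BiP) rose (0.60 ± 0.05), with Manf (0.73 ± 0.06), Creld2 (0.64 ± 0.06) and Syvn1 (0.37 ± 0.05). Pdia6 (-0.90 ± 0.13), Sdf2l1 (-0.65 ± 0.13), Calr (-0.41 ± 0.11) and Pdia4 (-0.28 ± 0.06) fell. Of 13 immediate early genes, all tested, 3 fell (Junb -1.08 ± 0.08, Klf6 -0.44 ± 0.05 and Myc -0.33 ± 0.07), 1 rose (Gadd45b 0.78 ± 0.11) and 9 did not pass, with a median of 0.03.

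**Figure D4:**
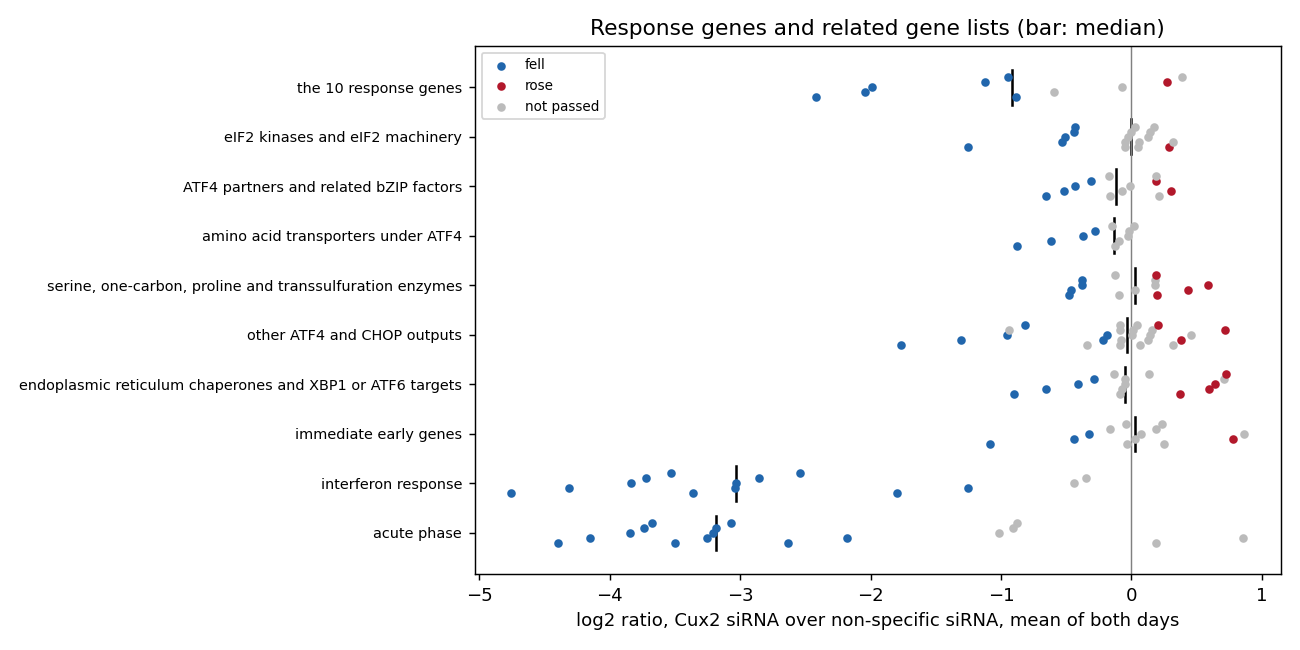
Mean log2 ratio of both days, Cux2 siRNA over non-specific siRNA (horizontal axis), for the 10 response genes and 9 related gene lists, with 1 point per gene (blue fell, red rose, grey not passed) and a bar at each median. The 10 response genes, chosen by these ratios, have a median of -0.92, the other lists of the response have medians from -0.13 to 0.03, and the interferon and acute phase lists lie near -3.03 and -3.19.

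Some lists of other programmes and cell types also had many falls, whereas others had few or none. Among all genes tested, falls over both days made up 16.3% and rises 14.8%. Of 14 interferon response genes 12 fell, 0 rose and 2 did not pass, with a median of -3.03 (Ifit1 -4.75 ± 0.09), and of 17 acute phase genes 12 fell, 0 rose and 5 did not pass, with a median of -3.19 (Saa1 -4.39 ± 0.39). Their part in the members' ratios was not tested. Exocrine pancreas markers (13 tested, 6 fell over both days) were below 0 for 13 of 13 on day 5 replicates 1 and 2 and day 8 replicate 2, with medians of -3.05, -4.03 and -3.78. On day 8 replicate 1 their median was 0.51 and only 1 of 13 was below 0. On that array Trib3 stood at -2.34, Psat1 at -1.68, Chac1 at -1.36, Nupr1 at -1.11, Asns at -0.83, Phgdh at -0.68, Ppp1r15a at -0.18, Atf3 at -0.13, Ddit3 at 0.15 and Atf4 at 0.18, with a median of -0.76. Summed pancreas signal was 12794, 13369, 52253 and 16089 in the Cux2 siRNA channels of day 5 replicates 1 and 2 and day 8 replicates 1 and 2, against 34733, 82219, 35222 and 90848 in the control channels.

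Macrophage markers fell in 12 of 15, with 0 rises and a median of -0.66, and their summed signal was 51993 to 82261 in the Cux2 siRNA channels and 101698 to 109232 in the control channels. Neutrophil markers fell in 6 of 9, with 0 rises and a median of -0.56, and summed to 2882 to 4381 in the Cux2 siRNA channels and 13062 to 18240 in the control channels. Stellate cell and fibroblast markers fell in 8 and rose in 3 of 12 (median -0.87), lymphocyte markers fell in 4 and rose in 1 of 11 (-0.08), and endothelial markers fell in 3 and rose in 1 of 10 (-0.10). Bile duct markers rose in 1 of 7 (0.02) and red cell markers in 1 of 5 (-0.16), with 0 falls in either. Hepatocyte markers, which check the labelled tissue, fell in 2 and rose in 2 of 11 (median 0.17), and no tested marker of any list was below background throughout. In bulk liver, fewer cells of a type and less RNA per cell cannot be told apart, and the part of these cell types in the members' ratios was not tested.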

How the data were processed

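Each of 4 Agilent 2-colour mouse arrays has a scanner file, which per the file headers came from Feature Extraction 10.7.1.1. From it the deposited intensity of every spot and of its surround (medians over pixels, unprocessed) was taken. Alternatives started from the software's processed intensities, which the headers describe as deposited after background subtraction and dye normalization, or from the authors' log10 ratios. The authors' deposited log10 table equals the scanner's log10 ratios turned to treated over control, within 1e-05. The array design's build in the headers differs from GRCm38.p6, so probes were matched by accession (23374 of 41174, 56.8%, had a symbol) and no probe coordinates are given.

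The limma package (3.58.1, R 4.3.3) was used. Local background was removed with normexp (offset 50), ratios were normalized by loess within arrays with control and outlier spots at weight 0, and spots were averaged per probe. For channel readings and summed signals, a further step (Aquantile) gave the average intensities of all arrays the same distribution. Ratios were taken without that step. Probes well above background in at least 2 of 8 channel readings were kept (31771), and the brightest stood for its gene. A single linear model with moderated variances (lmFit, eBayes), fitted to all arrays with the ratios turned to treated over control, gave day 5, day 8, their mean and their difference. Pools and dyes make up the spread between replicates, so p-values measure that spread and not single animals. The fit was tested on simulated data with known changes. Precision is limited by the number of arrays.

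The members and the gene lists (9 pathway and 9 marker lists, from general knowledge) were chosen with earlier results of these data known. Named genes are Cux2, the members with every probe, the 4 eIF2 kinases, up to 4 passing genes per direction in each response list and the 4 genes most like Trib3; genes with a CARE core and single examples of the interferon and acute phase lists were named after values were seen. Alternatives changed the background correction, signal, normalization, probe filter, probe summary and replicate block, and left out each array.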

Additional observations from a re-analysis of the deposited data

How the results depend on the processing

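In limma, 12 alternatives were run on 194 results for single genes and lists, giving 2326 values. Of these, 1987 kept their call or a similar count, 232 lost and 50 gained a call, and 56 list counts moved. A change of sign between 2 values that both did not pass was counted as kept. Where at least 1 of the 2 values passed, 1 gene reversed. That was Ero1a over both days, 0.24 with the mean of all its probes (limma adjusted p 0.0341) against -0.09. Trib3 ranged from -2.60 to -1.56 over both days and Psat1 from -2.82 to -0.99, and 9 members kept their sign under all 12, the exception being Ppp1r15a (-0.15 to 0.00). Without background subtraction 2 members passed at day 5 and 1 at day 8 (2861 and 2104 genes). On processed signals 4 and 2 passed (2016 and 1477 genes), and on the authors' log10 ratios 3 and 2 (2015 and 1468 genes). With median centring 0, 0 and 1 passed at day 5, day 8 and over both days, of 5, 3 and 269 genes, and the cause was not tested. Falls and rises over both days ranged from 0 to 5 and 0 to 4 of the eIF2 list, 0 to 4 and 0 to 4 of the bZIP factors, 0 to 5 and 0 of the transporters, 0 to 4 and 0 to 6 of the serine and related enzymes, 0 to 8 and 0 to 5 of the other outputs, 0 to 6 and 0 to 5 of the chaperones, 0 to 3 and 0 to 4 of the immediate early genes, 10 to 13 and 0 of the interferon genes and 5 to 15 and 0 to 1 of the acute phase genes. The replicate block gave 8225 genes at day 5, 7447 at day 8 and 11245 over both days, against 4214, 3593 and 7797 without it, and 9, 8 and 9 members against 7, 6 and 7, since Atf3 then fell and Ddit3 rose. Replicate number and dye orientation coincide, and replicate differences correlated at 0.50 across genes between days, with 9 of 10 members on the same side. With 2 pairs this does not establish pairing. Leaving out 1 array, genes called ranged from 239 to 3589 at day 5, 137 to 2472 at day 8 and 3879 to 5497 over both days, and members from 1 to 6, 1 to 6 and 6 to 8. A lone array is then assumed to vary like the others. At day 5 these were 828 genes and 3 members without day 5 replicate 1 and 239 and 1 without replicate 2, and at day 8, 779 and 3 without day 8 replicate 1 and 137 and 1 without replicate 2. Few arrays limit all of these calls, and dim probes such as the dimmest Phgdh probe have little signal over background. The treated spots of Psat1 and of the brightest Phgdh probe were also near background.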
